A study of Mus musculus with 3 samples.

Results

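Satellite glial cells (SGCs) that carried interferon-induced transcripts were picked out of single-cell RNA libraries of mouse lumbar dorsal root ganglia (DRGs), and numbered 159 of the 9662 cells that passed a filter of 500 genes or more and no more than 20% of UMIs from mitochondria. UMIs are molecule tags that count each captured transcript once. The members were chosen by measured UMIs: a cell was a member when it held at least 10 UMIs summed over 7 interferon-induced genes (Ifi27l2a, Isg15, Ifit1, Ifit3, Rtp4, Bst2 and Oasl2) and met a glial rule. The glial rule asked for Fabp7 at 0.1% of the cell's UMIs or more, for a UMI of at least 1 of the 4 genes Kcnj10, Ednrb, Egr3 and Acsbg1, for at most 1 UMI of Mag, Prx and Ncmap together and at most 1 of Snap25 and Rbfox3, and for none of Pecam1, Cdh5, Csf1r and C1qa. A further 1490 cells met the glial rule with fewer than 10 interferon UMIs and served as comparison glia. Since the 7 genes chose the members, their levels, and those of every other gene in the same cells, are given as a description with no test.

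There were 3 libraries, each made from 8 L3 and L4 DRGs pooled from 2 male C57BL/6J mice of 13 weeks. The naive mice were untreated. The mice of the SNI_day7 and SNI_day14 libraries had spared nerve injury (SNI), in which branches of the sciatic nerve are cut and another is left intact, on both sides 7 or 14 days earlier. The injured libraries therefore held no ganglia from an unoperated side. The injury is given as the labels have it. The study's results name partial ligation of the sciatic nerve for its single-cell data, and its discussion names SNI. For the animals of the study, its methods name female and younger C57BL/6J mice, which differ from the sex and age given here. With 1 library per condition, injury and library cannot be told apart, no p-value was computed, and all intervals are 95% intervals that cover counting error only. Members numbered 115 in the naive, 23 in the SNI_day7 and 21 in the SNI_day14 library, beside 545, 419 and 526 comparison glia. Their median depth was 5757, 7047 and 6883 UMIs against 4782, 6525 and 6603 in comparison glia, and the members of a library summed to 823344, 242265 and 179844 UMIs. Levels below are CPM, a gene's UMIs over all UMIs of the group's cells, scaled to 1000000. In bulk sums of this kind, fewer expressing cells and less RNA per cell cannot be told apart, and cell counts are therefore given beside the CPM.

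SGCs wrap the cell bodies of sensory neurons and buffer potassium and glutamate around them. Interferons are secreted alarm signals of the antiviral response. Type I interferons bind a receptor of IFNAR1 and IFNAR2 and interferon gamma one of IFNGR1 and IFNGR2, and Janus kinases then pass the signal to transcription factors that enter the nucleus. A complex with IRF9 binds the interferon-stimulated response element, and the factors activated by interferon gamma bind the gamma-activated site. The genes switched on encode proteins that bind viral RNA, block entry, tag proteins with the ubiquitin-like ISG15 or raise antigen display.

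The members held the glial genes of their label. Of 25 SGC and glial identity genes outside the rule, 24 had at least 20 UMIs over all glia, and the connexin gene Gjb6 had no UMI in any member. Kcnj10, the inward-rectifying potassium channel of SGCs and a gene of the rule, had a UMI in 89.6%, 95.7% and 90.5% of members and in 86.2%, 88.8% and 92.0% of comparison glia. Sox10, the glial lineage factor outside the rule, had one in 88.7%, 95.7% and 95.2% of members and in 86.2%, 87.8% and 88.4% of comparison glia, but in 4.56%, 3.92% and 4.91% of endothelial cells, which should lack it and had a median of 4353, 5084 and 5793 UMIs. Dbi, a lipid-binding protein also outside the rule, was at 8291, 7785 and 8051 CPM in members and at 1799, 1431 and 1448 CPM in myelinating glia. Sox10 was also in 71.0%, 77.2% and 76.4% of myelinating glia, so it did not set members apart from them. In these markers the members thus lay with the comparison glia, apart from endothelial cells by Sox10 and from myelinating glia by Dbi. Glul, glutamine synthetase, did not set SGCs apart, at 2404, 2582 and 2845 CPM in endothelial cells. No member was called a doublet by Scrublet, which called 29, 32 and 29 cells of the libraries (1 comparison cell in each). Between libraries 1, 6 and 2 cell barcodes were shared, and none of them was a member. Scn7a, a Schwann cell gene, had a UMI in 14, 3 and 2 members, or 12.2%, 13.0% and 9.52%, and in 9.36%, 11.7% and 12.0% of comparison glia.

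The share of members was highest in the naive library. They made up 17.4% of the rule's glia there (interval 14.6 to 20.5), 5.20% in the SNI_day7 library (3.33 to 7.71) and 3.84% in the SNI_day14 library (2.39 to 5.81), a naive share 3.35 and 4.54 times that of the injured libraries. The naive interval did not overlap those of the injured libraries, which overlapped each other. The order of the injured libraries depended on the limit, and at 15 UMIs their shares were 2.71% and 2.93% beside a naive share of 13.3%. The median depth of the rule's glia was 5015, 6584.5 and 6614 UMIs. With each cell thinned to 2300 UMIs and shallower cells left out (69, 33 and 29 glia), the expected share with at least 10 interferon UMIs was 8.85%, 1.66% and 0.965%, in the same order. Raising the cell filter to 1000 genes and lowering the mitochondrial limit to 10% left members at 30 of 97, 2 of 18 and 0 of 4 glia. The 4 SNI_day14 glia are too few to place that share. Whether the difference belongs to the injury, the animals or the dissociation cannot be told apart.

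**Figure D1:**
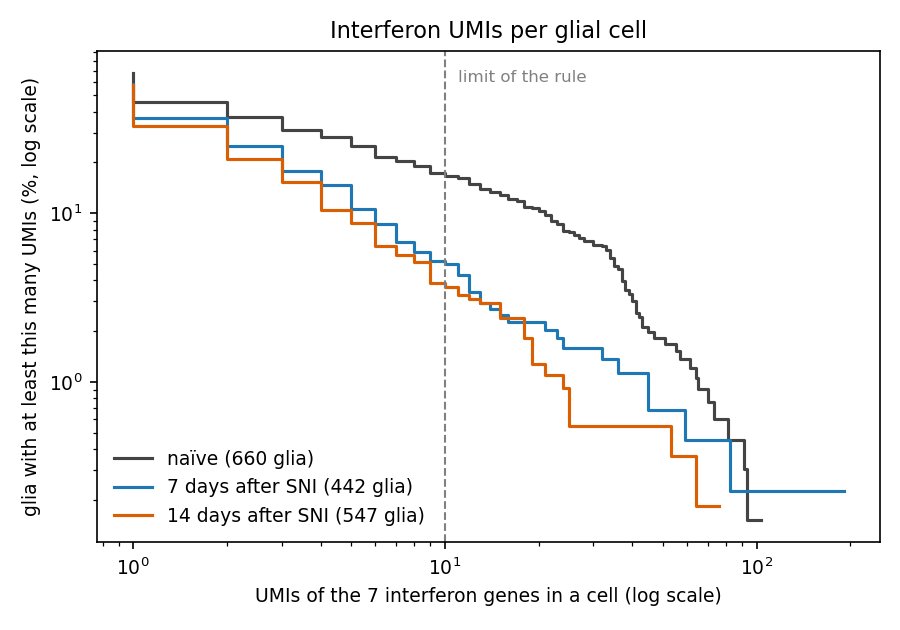
The share of glia (vertical axis, percent, log scale) that held at least a given number of UMIs of the 7 interferon genes (horizontal axis, log scale), with 1 step line per library. The naive line lies above both injured lines over most of the range, and the farthest single cell, with 191 UMIs, is in the SNI_day7 library.

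The order of the 3 libraries was also seen in the shares of other cell classes, though not every difference exceeded counting error. Endothelial cells, taken by Pecam1 and Cdh5, held at least 10 UMIs of the 7 genes in 38.9%, 31.4% and 25.2% of cells, and macrophages, taken by Csf1r and C1qa, in 31.4%, 30.5% and 10.1%. Myelinating glia, taken by Mag, Prx and Ncmap, did so in 4.10%, 1.12% and 0.672%. The naive and SNI_day7 intervals overlapped for endothelial cells (33.3 to 44.9 and 25.1 to 38.2) and for macrophages (20.9 to 43.6 and 24.4 to 37.2). Macrophages numbered 70, 213 and 258, at a median depth of 2152, 4406 and 3793.5 UMIs. Neurons, taken by Snap25 and Rbfox3, differed, at 42.3%, 40.0% and 45.3%, but at a median depth of 52833.5, 56188.5 and 66864 UMIs a cell. On the CPM scale the 7 genes summed to 530, 338 and 207 in neurons, 490, 116 and 116 in myelinating glia and 1022, 384 and 286 in the rule's SGCs, so that all of these classes were highest in the naive library. The level also differed between classes of a library: endothelial cells stood at 1968, 1243 and 1052 CPM and macrophages at 3237, 1866 and 800 CPM. Without Ifi27l2a and Bst2 the remaining genes summed to 1328, 878 and 799 CPM in endothelial cells and 1150, 627 and 227 CPM in macrophages. The order of these classes thus depended on the genes summed. Whether free RNA was removed before deposit is not given in the sources used here, and its part in these levels was not tested. Comparison glia without a single UMI of the 7 genes made up 39.1%, 43.7% and 44.3%.

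The members spanned a wide range of interferon load. The median member held 23, 15 and 18 UMIs of the 7 genes, up to 103, 191 and 76, or per 10000 UMIs a median of 44.0, 21.0 and 20.8 against 1.55, 1.003 and 0.925 in comparison glia. There was no gap at the threshold. Cells just outside it, with 8 or 9 UMIs, numbered 19, 7 and 10, and cells just inside it, with 10 or 11, numbered 8, 4 and 3. The cells just outside were the deeper ones, with a median of 5536, 8429 and 7187.5 UMIs against 2974, 5410 and 5864 just inside, and held more Fabp7, at 9736, 16241 and 9346 CPM against 4267, 4844 and 3874. At least 4 of the 7 genes were detected in 95, 19 and 15 members (82.6%, 82.6% and 71.4%), and all 7 in 33, 3 and 5.

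Ifi27l2a, a mitochondrial interferon-induced protein gene on chromosome 12, supplied the largest part of the rule's UMIs in the naive and SNI_day14 members. It stood at 1592, 710 and 1095 CPM in members and 125, 66.7 and 62.0 in comparison glia, log2 ratios of 3.66, 3.39 and 4.12, and made up 39.6%, 23.9% and 39.3% of the members' 7-gene UMIs. It was the leading gene of 75 of 115, 9 of 23 and 13 of 21 members. The SNI_day7 members stood out for its absence: 8 of 23 had no Ifi27l2a UMI, against 5 of 115 naive and 2 of 21 SNI_day14 members. Leaving Ifi27l2a aside, 71, 15 and 12 members still held at least 10 UMIs of the other 6 genes.

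Ifit1, whose protein holds back translation of foreign RNA that lacks host caps, was at 555, 751 and 378 CPM in members and at 21.4, 17.1 and 18.4 in comparison glia. It was detected in 86, 18 and 13 members, led the rule's genes in 17, 10 and 2 of them, and was the one gene of the rule that led more SNI_day7 members than Ifi27l2a did. Ifit3, its partner in the same protein complex, was at 234, 433 and 423 CPM in members and 10.9, 19.8 and 23.3 in comparison glia. Isg15, the ubiquitin-like tag, was at 621, 454 and 311 CPM in members against 45.5, 28.2 and 24.6.

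One SNI_day7 cell weighs on these levels. It held 191 of the 720 rule UMIs of that library's members (26.5%), with 65 of 182 Ifit1, 45 of 105 Ifit3 and 39 of 110 Isg15 UMIs, while the top naive cell held 103 of 3313 (3.11%) and the top SNI_day14 cell 76 of 501 (15.2%). The remaining 3 genes of the rule were highest in the naive members. Oasl2, a relative of the 2′-5′ oligoadenylate synthetases, was at 396, 281 and 261 CPM in members and 15.4, 15.8 and 16.9 in comparison glia. Bst2 (tetherin), which holds budding virus on the cell surface, was at 378, 190 and 211 CPM against 29.6, 17.7 and 16.1, and Rtp4, a receptor transporter that also binds RNA, at 248, 153 and 106 CPM against 28.95, 23.9 and 13.2.

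**Figure D2:**
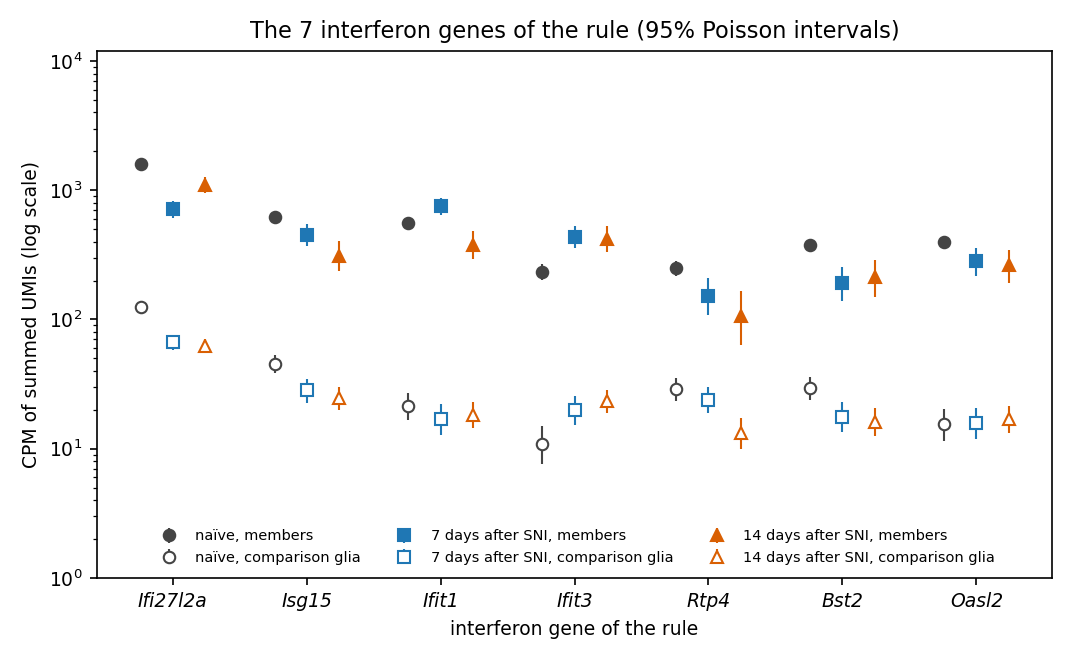
CPM of summed UMIs (vertical axis, log scale) of the 7 interferon genes that chose the cells, in members (filled) and comparison glia (open) of each library, with 95% Poisson intervals. Ifi27l2a is highest in naive members at 1592 CPM, Ifit1 is the highest gene of SNI_day7 members at 751 CPM, and the separation of the groups is what the rule imposed.

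The stretches before the starts of genes of the rule hold the response element in different numbers, and the sequences of Isg15 and Ifit1 are shown because both genes are in the rule and differ in how the element is arranged. Each is the 200 bases directly before the RefSeq start on GRCm38.p6, 5′ to 3′ on the gene's strand, with capitals on every match to GAAANNGAAA on either strand, so that a match on the other strand is printed as its reverse complement. Isg15 lies on the minus strand, with its stretch at chr4:156200819-156201018, and Ifit1 on the plus strand, with its stretch at chr19:34640689-34640888.
Isg15: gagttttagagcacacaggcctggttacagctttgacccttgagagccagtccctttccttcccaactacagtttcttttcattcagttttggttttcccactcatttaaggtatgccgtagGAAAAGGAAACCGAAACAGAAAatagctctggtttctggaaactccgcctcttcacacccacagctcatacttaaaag
Ifit1: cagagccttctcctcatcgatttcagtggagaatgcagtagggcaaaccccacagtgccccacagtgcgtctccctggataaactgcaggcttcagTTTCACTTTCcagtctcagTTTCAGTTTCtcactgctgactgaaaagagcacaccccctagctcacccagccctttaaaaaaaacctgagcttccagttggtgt
Isg15 had 3 matches that overlap one another, starting 78, 72 and 66 bases before the start, and Ifit1 had 2 separate ones, at 104 and 85 bases.

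Outside the rule, members were higher than comparison glia in a small set of genes, most of them known interferon targets. A gene was called when its CPM (plus 1) differed at least 2-fold in the same direction in all 3 libraries and 20% or more of the higher group's cells held a UMI of it. Of 11854 genes with at least 20 UMIs over all glia, 34 were called higher (0.287%) and 0 lower. By library the same limits gave 77 higher genes in the naive (0.65%), 261 in the SNI_day7 (2.2%) and 269 in the SNI_day14 contrast (2.27%), and 2 (0.0169%), 116 (0.979%) and 220 (1.86%) lower ones, the injured contrasts resting on 23 and 21 members. Without the detection limit, 63 genes were higher in all libraries (0.531%) and 88 lower (0.742%). Of the 34 genes, 7 were the rule's own, 19 belonged to the 80 interferon-induced genes listed outside the rule, 3 to the list for antigen display by MHC class I, and 5 to no list (Gm4951, Rnf213, Ddx60, Trim12a and Trim34a). No gene in the list of SGC identity, of lipid synthesis or of another cell type was called.

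**Figure D3:**
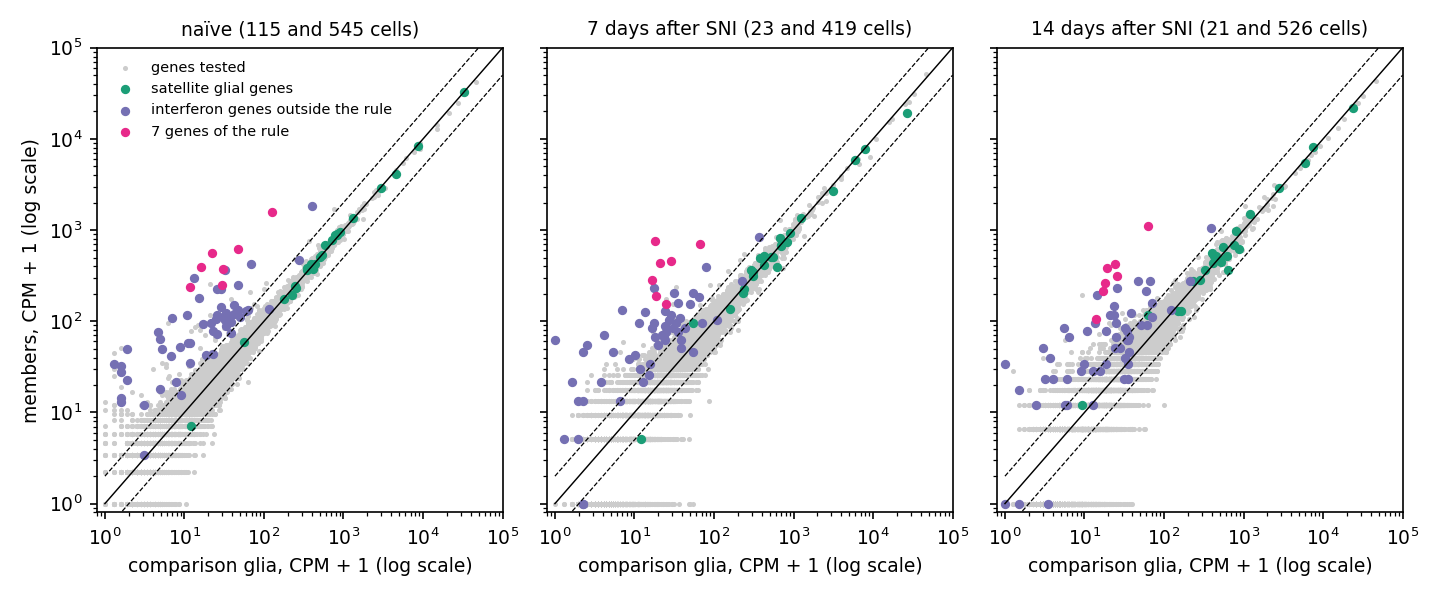
CPM plus 1 of each gene in comparison glia (horizontal axis) and members (vertical axis), both on log scales, with 1 panel per library and coloured points for the gene lists. Most coloured interferon genes lie above the solid line of equal levels, many beyond the dashed line of a 2-fold ratio, the identity genes lie mostly along the solid line, and the grey cloud is wider in the injured panels, which rest on 23 and 21 members.

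Of the 80 listed genes, 54 passed the limit of 20 UMIs, 19 were called higher and 0 lower, and 44 had log2 ratios above 0 in all 3 libraries. Over all 11854 genes tested, 34 (0.287%) were called higher and 1480 had log2 ratios above 0 in all 3 libraries. The median log2 ratio of the listed genes was 2.15, 1.76 and 1.42, beside 0.01, -0.03 and -0.03 over all genes tested. The sum over the list was 7581, 5337 and 5216 CPM in members and 1856, 1791 and 1872 in comparison glia. By role, the genes called were 5 of 9 tested among the interferon-induced GTPases, 5 of 11 among ubiquitin and ADP-ribose enzymes, 2 of 5 transcription factors, 2 of 6 sensors, 4 of 20 other effectors, 1 of 2 IFIT genes and 0 of 1 oligoadenylate synthetases. Genes low in comparison glia could pass the UMI limit only by being high in members, so these counts describe the list and support nothing.

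The effectors include the largest ratios. Ifit3b, a near copy of Ifit3 on chromosome 19, was at 299, 231 and 195 CPM in members and 12.4, 16.7 and 13.4 in comparison glia, and reads of these near-identical genes may be split between them. Rsad2 (viperin), an enzyme that makes a chain-ending nucleotide against viral RNA synthesis, was at 48.6, 132 and 66.7 CPM against 4.22, 5.89 and 5.46, log2 ratios of 3.25, 4.27 and 3.39, but 22 of the 32 SNI_day7 UMIs came from the cell with most interferon UMIs. Cmpk2, the nucleotide kinase gene next to Rsad2 on chromosome 12, was at 117, 94.9 and 94.5 CPM against 9.65, 10.5 and 12.4, with UMIs in 53, 12 and 8 members. Both neighbours were therefore high in each library, Cmpk2 in more of the cells. Ifitm3, which blocks virus entry at endosomes, was the most abundant called gene outside the rule, at 1835, 834 and 1051 CPM against 400.5, 371 and 384, and had a UMI in 115 of 115, 22 of 23 and 21 of 21 members. It lost its call when the member with most interferon UMIs was left out of each library, as did Gm4951, Herc6, Parp14, Parp9, Stat2 and Tap1. Lgals3bp, a secreted glycoprotein, was at 223, 66.0 and 145 CPM against 27.4, 17.1 and 22.6.

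The interferon-induced GTPases, which attack the membranes around intracellular pathogens, had the greatest share called. Gbp2 was at 360, 157 and 272 CPM in members and 31.4, 34.1 and 45.9 in comparison glia, and its chromosome 3 neighbour Gbp3 at 181, 82.6 and 117 against 14.2, 15.8 and 22.3. Igtp (Irgm3) was at 222, 202 and 228 CPM against 25.03, 30.1 and 24.8, with log2 ratios of 3.10 (interval 2.77 to 3.54), 2.71 (2.22 to 3.26) and 3.15 (2.64 to 3.74), but 27 of its 49 SNI_day7 UMIs lay in 1 cell. Irgm2, at 92.3, 94.9 and 77.8 CPM against 16.3, 16.4 and 17.4, overlaps Igtp on the same strand of chromosome 11, so how reads were split between them is uncertain. Irgm1 did not follow in every library, with log2 ratios of 2.12, 3.22 and -0.09. Gm4951, a predicted gene on chromosome 18, was at 43.7, 33.0 and 61.2 CPM against 0.302, 3.41 and 4.71, where the naive comparison level is 1 UMI.

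Among the factors that carry the signal, Stat2 was at 117, 61.9 and 50.04 CPM in members and 25.03, 23.3 and 23.1 in comparison glia, with UMIs in 53, 8 and 8 members. The log2 ratio of Irf9, the DNA-binding part of the complex, was 1.87, 1.67 and 0.85, so it missed the 2-fold limit at SNI_day14. Irf7, the factor that amplifies type I interferon production, had large ratios (3.70, 4.42 and 2.28) but UMIs in 36, 7 and 2 members, below the detection limit at SNI_day14. Among the sensors of foreign RNA, Ddx58 (RIG-I) was at 142, 86.7 and 117 CPM against 27.7, 23.3 and 19.9 and Ifih1 (MDA5) at 121, 103 and 83.4 against 32.3, 26.0 and 31.0. Zbp1, a sensor of Z-form nucleic acid, was uneven, with 26, 0 and 4 UMIs in members.

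Some interferon genes were nearly silent in comparison glia and held by few members of at least 1 library. Mx1, an antiviral dynamin-like GTPase, had 27, 15 and 6 UMIs in 18, 3 and 4 members (32.8, 61.9 and 33.4 CPM) and 0.302, 0 and 0 CPM in comparison glia. Iigp1, a GTPase of the Irg family, had 40, 11 and 15 UMIs in 17, 1 and 4 members. Usp18, which removes ISG15 and damps the receptor, was at 75.3, 70.2 and 38.9 CPM against 3.62, 3.10 and 2.73, in 42, 10 and 4 members. Each was high in too few cells of at least 1 library to be called. The oligoadenylate synthetases other than Oasl2 were close to absent, with Oasl1 at 11, 5 and 0 UMIs and no UMI of Oas2 or Oas3 in members.

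**Figure D4:**
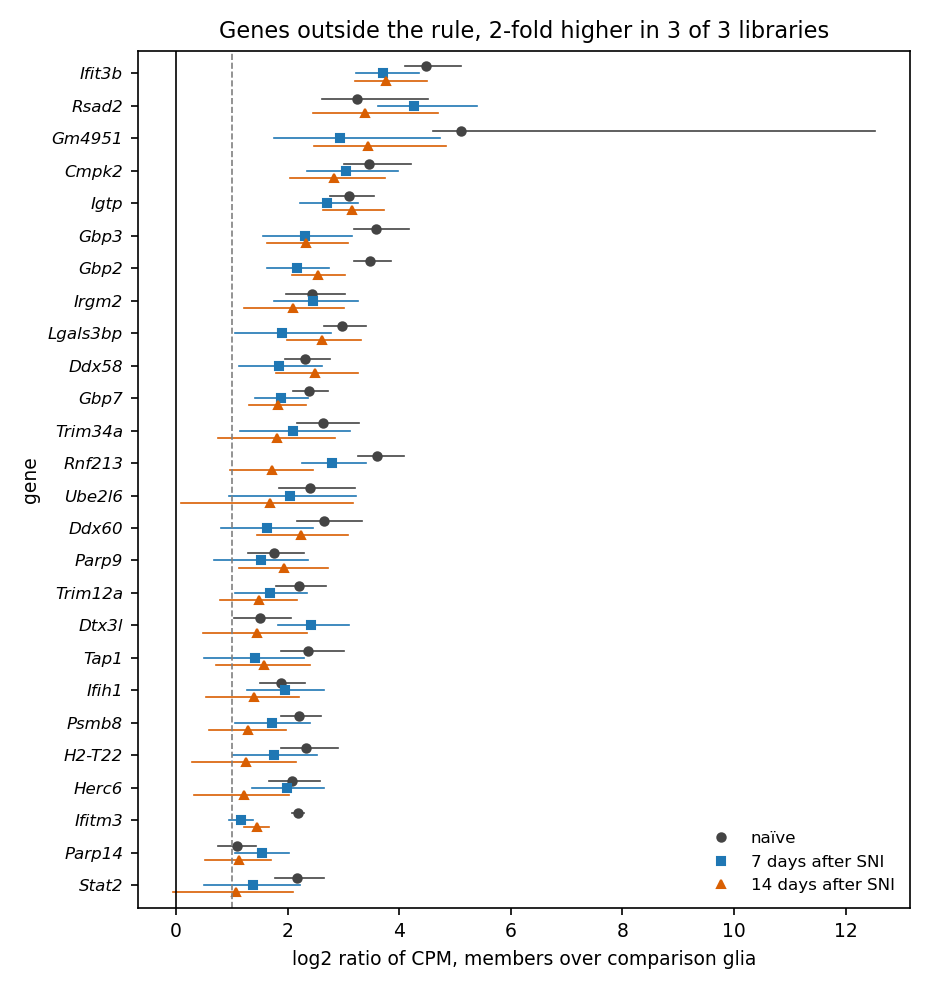
Log2 ratios of CPM, members over comparison glia (horizontal axis), for the called genes outside the rule that are reported here (vertical axis), with 1 point per library and lines for 95% counting intervals. The dashed line marks a 2-fold ratio, all points lie to its right, and the naive intervals, which rest on 115 members, are mostly the narrowest, except that of Gm4951.

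The response element was frequent before the starts of the called genes. In RefSeq windows of 300 bases (250 before to 50 after the start), 28 of the 34 genes had a window and 19 of the 28 (67.9%) held GAAANNGAAA on either strand, against 3.99% of all 27025 genes with a window and 5.56% of the 18 identity genes with one. The 28 include 5 genes of the rule, 4 of them with the element, and near copies such as Ifit3 and Ifit3b. The share therefore describes the list and supports nothing. The gamma-activated site TTCNNNGAA, which reads the same on both strands, was in 6 of the 28 (21.4%), against 9.55% of all genes, and in 2 windows it overlapped a response element. The windows of Cmpk2, Dtx3l, Herc6, Lgals3bp, Oasl2, Psmb8, Rnf213, Tap1 and Ube2l6 held no GAAANNGAAA, which says only that these letters are not in those 300 bases. Ifit3b and Rsad2 are shown as the leading genes outside the rule, Igtp for its different placing of the element, and Fabp7 as the glial gene of the rule with none. The stretches, drawn as above, are chr19:34607757-34607956 on the plus strand for Ifit3b, chr12:26456453-26456652 on the minus strand for Rsad2, chr11:58199356-58199555 on the plus strand for Igtp and chr10:57784723-57784922 on the plus strand for Fabp7.
Ifit3b: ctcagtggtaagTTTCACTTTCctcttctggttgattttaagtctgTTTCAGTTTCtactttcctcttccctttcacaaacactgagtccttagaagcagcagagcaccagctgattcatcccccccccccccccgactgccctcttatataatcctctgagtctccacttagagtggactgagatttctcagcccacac
Rsad2: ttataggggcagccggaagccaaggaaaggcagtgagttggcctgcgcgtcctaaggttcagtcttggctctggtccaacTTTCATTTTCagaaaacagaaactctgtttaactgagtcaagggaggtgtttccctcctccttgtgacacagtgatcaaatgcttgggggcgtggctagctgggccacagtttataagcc
Igtp: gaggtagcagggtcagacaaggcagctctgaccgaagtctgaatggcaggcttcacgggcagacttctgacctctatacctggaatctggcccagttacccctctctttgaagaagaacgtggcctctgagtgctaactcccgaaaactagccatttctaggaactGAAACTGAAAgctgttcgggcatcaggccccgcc
Fabp7: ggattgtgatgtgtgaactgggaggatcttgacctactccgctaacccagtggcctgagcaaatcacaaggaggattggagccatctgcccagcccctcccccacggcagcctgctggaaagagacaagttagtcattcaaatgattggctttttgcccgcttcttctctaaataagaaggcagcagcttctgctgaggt
Matches start 188 and 154 bases before the start in Ifit3b, at 120 bases in Rsad2 and at 34 bases in Igtp, the only one of the 6 stretches shown with a TTCNNNGAA in its window. A match is a description of letters and not a shown binding site.

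Antigen display by MHC class I was higher in members to a lesser degree. Of 18 listed genes, 17 were tested, all 17 had log2 ratios above 0 in all 3 libraries, and 3 were called (Tap1, Psmb8 and H2-T22), with a list median of 1.15, 0.71 and 0.91. Over all 11854 genes tested, 1480 had log2 ratios above 0 in all 3 libraries and 34 (0.287%) were called higher. The MHC class I list summed to 4281, 2927 and 4254 CPM in members and 1856, 1759 and 2420 in comparison glia. B2m, the light chain shared by class I molecules, was at 1698, 1288 and 1857 CPM against 759.7, 682 and 1056. The heavy chain H2-K1 was at 752, 409 and 968 CPM against 364, 381 and 513, so the SNI_day7 members differed little from their comparison glia. Tap1, the peptide transporter, had log2 ratios of 2.37, 1.41 and 1.58, and Psmb8, a subunit of the immunoproteasome, of 2.21, 1.72 and 1.30. Of MHC class II, 5 genes were tested and 0 called, with summed levels of 13.4, 49.5 and 50.04 CPM in members and 9.95, 27.0 and 58.1 in comparison glia.

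No source of interferon was seen in these cells. All 12 listed interferon genes had 0 UMIs in members and comparison glia of all libraries, and 3 UMIs, the most that a count of 0 allows, correspond to 3.64, 12.4 and 16.7 CPM in members. Of 13 receptor and signalling genes 11 were tested and 0 called. Ifnar1 was at 41.3, 37.1 and 66.7 CPM in members and 39.8, 41.5 and 43.9 in comparison glia, and the kinase gene Jak1 at 114, 119.7 and 106 CPM against 115, 119.97 and 131. Among 16 chemokine and cytokine genes 7 were tested and 0 called. Cxcl10, a chemokine for activated T cells, came nearest with 117, 235 and 150.1 CPM against 19.9, 32.2 and 65.5, but in only 22, 6 and 5 members, and 45 of its 57 SNI_day7 UMIs were from the cell with most interferon UMIs.

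The interferon genes outside the rule also tracked the interferon UMIs within the glia. In naive glia they summed to 1525 CPM in cells with 0 UMIs of the 7 genes, 2637 in those with 5 to 9, 5048 in those with 10 to 19 and 8949 in those with 20 or more. The SNI_day7 values in the same classes were 1532, 2216, 3624 and 6973 CPM, and the SNI_day14 values 1582, 2877, 3163 and 11168 CPM. The cells with 5 to 9 UMIs, below the threshold, thus already lay above those with none in each library. MHC class I was also higher in the highest class than in cells with none, at 4619 against 1569 CPM in naive, 2946 against 1730 in SNI_day7 and 4228 against 2043 in SNI_day14 glia. The identity genes summed to 57819 and 59015 CPM at the ends of the naive range. In the injured glia the identity sum was lower in the highest class, at 42284 against 51046 CPM for SNI_day7 (10 cells) and 41179 against 47488 CPM for SNI_day14 (7 cells). Apoe weighs heavily on this sum, and its part in these classes was not separated.

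**Figure D5:**
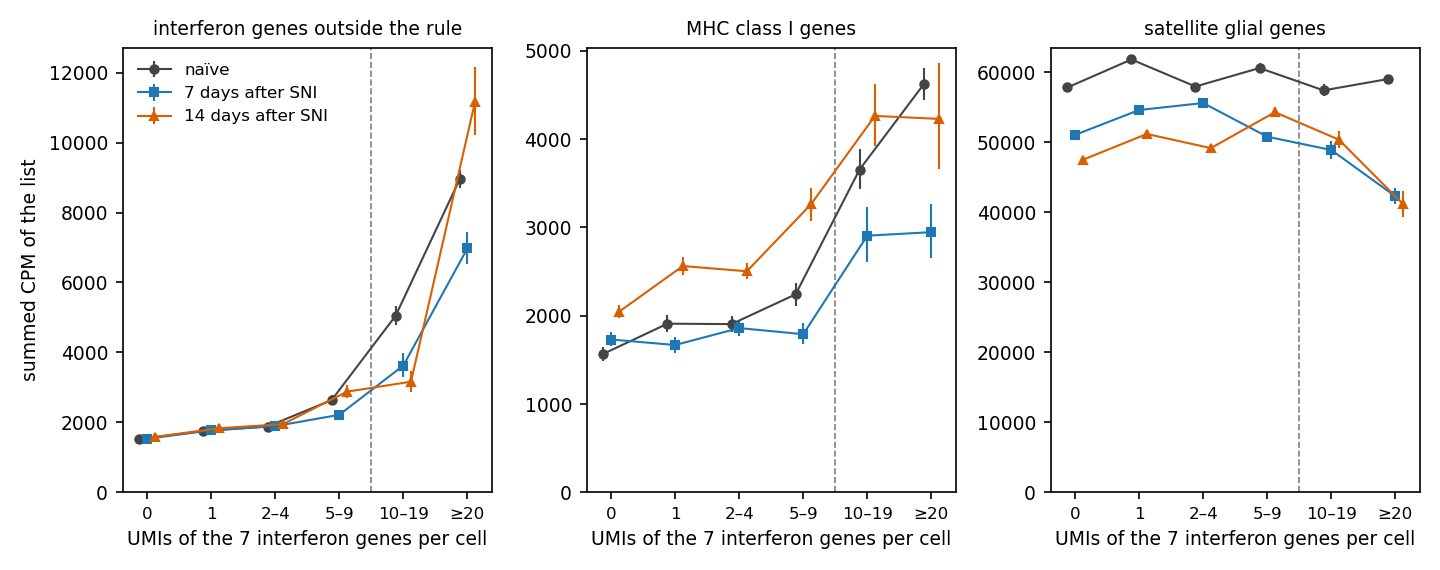
Summed CPM (vertical axes, from 0) of the interferon genes outside the rule, the MHC class I genes and the SGC identity genes, over classes of glia by their UMIs of the 7 rule genes (horizontal axes), with 95% Poisson intervals and 1 line per library. The dashed line is the threshold of 10 UMIs, and the interferon sum climbs from 1525 to 8949 CPM across the naive classes.

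Members chosen through few genes looked different. Those with at most 2 of the 7 genes numbered 11, 2 and 4, and Ifi27l2a was the leading gene in each of them. Their interferon genes outside the rule summed to 2901, 1344 and 1672 CPM, against 8000 (naive), 5803 and 5923 CPM in members with at least 3 genes and 1856, 1791 and 1872 CPM in comparison glia. In the injured libraries these 6 cells were thus at or below the level of comparison glia, with counting intervals of 930.4 to 1877 and 1241 to 2204 CPM. Per cell, the median member held 42, 33 and 39 UMIs of the outside list, from 20, 16 and 16 genes, and the median comparison cell 9, 11 and 11 UMIs from 6, 8 and 8 genes.

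SGC identity differed little between members and comparison glia in the median gene. The summed level, on which Apoe weighs heavily, was lower in members, mostly at SNI_day7. Of the 24 identity genes tested, 0 were called in either direction, and their median log2 ratio was -0.01, -0.04 and 0.07. In all 3 libraries, 4 of them had log2 ratios above 0 and 3 below 0. The list summed to 58451, 45512 and 48008 CPM in members and 59336, 53091 and 49515 in comparison glia. The intervals did not overlap in any library, with the widest gap at SNI_day7 (44667 to 46370 and 52839 to 53343). Apoe was at 32785, 19458 and 21991 CPM in members against 33144, 26584 and 23912. Because Apoe weighs heavily on the sum, the lower sums do not show a fall across the list. Fabp7, the brain-type fatty acid binding protein used in the rule, was at 9045, 6340 and 7173 CPM in members and 9198, 9244 and 7850 in comparison glia. Glul was at 770.03, 388 and 478 CPM against 721, 616 and 506, so the difference was mostly in the SNI_day7 library. Sox10 had log2 ratios of -0.07, 0.29 and 0.08 and Erbb3, a neuregulin receptor, of 0.12, 0.36 and 0.29. Bcan, the matrix proteoglycan brevican, was at 361 CPM in SNI_day14 members against 636, with naive values of 946 and 905. None of the 21 sterol synthesis genes, the 12 myelin genes or the 8 non-myelinating Schwann cell genes was called.

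No gene listed for another cell type was called. The summed endothelial, mural and neutrophil lists were lower in members in each library and the macrophage list higher. Each of these sums rested on at most 41 member UMIs in a library. The macrophage list summed to 7.29, 24.8 and 200.2 CPM in members and 5.73, 21.1 and 24.6 in comparison glia, and 35 Lyz2 UMIs in a single SNI_day14 cell made up most of the last member value. The endothelial list was at 20.6, 8.26 and 27.8 CPM against 22.6, 25.1 and 43.2, with Pecam1 and Cdh5 at 0 by the rule, and lymphocyte genes were at 0 in members and at 0, 1.24 and 0.744 CPM in comparison glia. Neuron genes summed to 160.3, 153 and 395 CPM against 131, 322 and 248, and blood genes to 41.3, 74.3 and 44.5 against 113, 69.1 and 45.4. Neutrophil genes were at 1.21, 12.4 and 5.56 CPM against 7.24, 164 and 6.95, mural genes at 49.8, 37.1 and 22.2 against 58.2, 104 and 61.5, and fibroblast genes at 776, 1114 and 1168 against 660, 858 and 1201. Myelin genes, part of which SGCs share, summed to 6036, 8288 and 8107 CPM against 6805, 8265 and 8299. The share of mitochondrial UMIs had medians of 12.6%, 13.7% and 14.1% in members and 13.8%, 15.0% and 15.7% in comparison glia. Of the 18 early response and stress genes 0 were called over all libraries, but 5 (Egr1, Fos, Ier2, Junb and Zfp36) were 2-fold higher in SNI_day7 members, where 2.2% of all genes were, against 0 in each of the other 2 libraries. The list's median log2 ratio was -0.10, 0.67 and 0.19. Fos, an early response factor, was at 140, 549 and 239 CPM against 195, 235 and 174, and 35 of its 133 SNI_day7 UMIs were in 1 cell. For Egr1, 54 of the 114 SNI_day7 member UMIs were in 1 cell.

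Gfap, the filament gene whose use as a marker of reactive SGCs was the question of the study, did not go with membership in all libraries. It had a UMI in 8 of 115 naive members (6.96%, exact interval 3.05 to 13.2), 3 of 23 SNI_day7 members (13.0%, 2.78 to 33.6) and 1 of 21 SNI_day14 members (4.76%, 0.120 to 23.8). In comparison glia it was in 7 of 545 (1.28%, 0.518 to 2.63), 12 of 419 (2.86%, 1.49 to 4.95) and 41 of 526 (7.79%, 5.65 to 10.4). The naive intervals did not overlap and those of both injured libraries did. Of 17 genes listed for SGC reactivity, 13 were tested and 0 called between members and comparison glia. The Gfap counts are small: each of the 8 naive members held 1 Gfap UMI, and 7 of the 11 SNI_day7 UMIs were in 1 cell.

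Injured and naive members were compared with the few injured cells in mind. With a 2-fold limit in both injured libraries and the same detection limit, 57 genes were higher (0.481%) and 52 lower (0.439%) in injured members, of which 34 and 46 had fewer than 10 member UMIs in at least 1 injured library. Taken singly, the injured libraries gave 361 (3.05%) and 390 (3.29%) genes higher and 217 (1.83%) and 355 (2.99%) lower. In the larger comparison groups, 5 genes were higher (0.0422%) and 1 lower (0.00844%) at SNI_day7 and 14 higher (0.118%) and 6 lower (0.0506%) at SNI_day14. Of the interferon lists outside the rule only Parp12, an ADP-ribosyltransferase gene, was lower in both, at 113, 49.5 and 38.9 CPM, and of MHC class I only H2-T23, at 77.7, 16.5 and 33.4. The median log2 ratio of the interferon lists outside the rule, injured over naive, was -0.26 and -0.58 in members and 0.02 and 0.06 in comparison glia. For the rule's genes the values were -1.16 and -0.54 for Ifi27l2a, 0.44 and -0.55 for Ifit1, 0.88 and 0.85 for Ifit3 and -0.45 and -0.99 for Isg15. These 7 values are tied together by the rule, which sets the lowest sum a member may hold, and 45 of the 105 SNI_day7 Ifit3 UMIs came from 1 cell.

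The 10 genes highest in injured members were 5930430L01Rik, Pcdhgc4, Zfp446, Lgals3, Med16, Zfp626, Serpina3n, Crebl2, Psen2 and Arrdc3. Serpina3n, a secreted protease inhibitor of the acute phase, rested on the most UMIs, with 62, 61 and 44, and was at 75.3, 252 and 245 CPM. Comparison glia were likewise higher after injury, at 35.3, 87.4 and 190.3 CPM, though 22 of the 61 and 20 of the 44 injured member UMIs were in 1 cell each. The mean of its injured over naive log2 ratios, 1.71, was 0.51 at a cutoff of 20 interferon UMIs and 0.42 with interferon genes at 0.2% of a cell's UMIs. Lgals3 (galectin-3), a lectin, was at 13.4, 57.8 and 122 CPM, on 11, 14 and 22 UMIs, with log2 ratios of 2.03 and 3.10 against 0.15 and 0.64 in comparison glia. Of its injured member UMIs, 6 of the 14 and 8 of the 22 were in 1 cell each. The first 3 genes of the order had 4 naive UMIs each and at most 10 in an injured library.

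The 10 lowest were Fntb, Mrpl38, Cdo1, Slc24a5, Pip4k2b, Pgf, Zfyve1, Ppp1r21, Ssbp1 and Tmem126a. Fntb, a farnesyltransferase subunit gene, had 70, 4 and 2 UMIs (85.0, 16.5 and 11.1 CPM), where comparison glia held 58.2, 62.3 and 53.4 CPM. Cdo1, cysteine dioxygenase, had 75, 6 and 1 UMIs, and its comparison log2 ratios were -0.82 and -0.68. Sfrp5, a secreted Wnt inhibitor outside these 10 and named after its values were seen for its high counts, was also called, at 1111, 491 and 506 CPM in members and 916, 758 and 620 in comparison glia. Its member log2 ratios were -1.18 and -1.13 against -0.27 and -0.56.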

How the data were processed

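Single cells of 3 libraries (naive, SNI_day7 and SNI_day14) were captured after enzyme dissociation, with whole cells as the input. The deposited files hold unnormalized UMI counts per gene and barcode, which the authors made with Cell Ranger 3.0.2 on mm10 per the submitters' processing notes. Other filters and the treatment of free RNA are not given in the sources used here. The libraries held 3748, 3281 and 4908 barcodes and 23107376, 22343246 and 36550911 UMIs, and 3152, 2682 and 3828 cells were kept.

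Counts were summed over members and over comparison glia of each library and divided by the group's total UMIs (CPM). A pseudocount of 1 CPM was added before log2 ratios. Intervals at 95% were exact (Clopper-Pearson for shares, Poisson for CPM, conditional binomial for ratios) and cover counting error only. Doublets were called by Scrublet in scanpy 1.11.5 at an expected rate of 5%. Other tools were python 3.11.15, numpy 2.4.6, scipy 1.17.1 and pandas 2.3.3. The calling rule was tested on simulated data for members against comparison glia: of 200 genes at 100 CPM or more changed 4-fold among 31053, 100 higher and 99 lower genes were recovered, with 0 unchanged genes called. Recovery at lower levels was not tested. The simulated cells of a group shared the same profile in all libraries and were not chosen by their counts. The simulation therefore does not cover false calls that come from single cells, from differences between cells or from the choice of members.

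The members, the gene lists and the alternatives were chosen with earlier results of these data known. Named genes were all genes of the rule, genes of the lists by role, and, outside the rule, the 10 highest and 10 lowest by the smallest ratio over libraries among those called, with Gfap added. Of the genes this takes, 1 is not reported here. Gene IDs matched the GENCODE annotation of GRCm38 for 30934 of 31053 genes. Promoter stretches came from RefSeq on GRCm38.p6. Of the 34 called genes 28 had one.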

Additional observations from a re-analysis of the deposited data

How the results depend on the processing

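No paired analysis was possible because the libraries have no numbered partners and no result comes from a test. The naive share was the highest of the 3 under every alternative that gave shares. A cutoff of 5 UMIs gave shares of 28.2%, 14.7% and 10.4%, and a cutoff of 20 gave 10.8%, 2.26% and 1.28%. Interferon genes at 0.2% of a cell's UMIs gave an SNI_day14 share of 2.38%, and 6 genes without Ifi27l2a at 5 UMIs an SNI_day7 share of 8.14%. The stricter cell filter gave 30.9%, 11.1% and 0%, and no contrast could be computed from it. Thinning to 2300 UMIs gave 8.85%, 1.66% and 0.965%, and to 3300 UMIs 11.6%, 2.03% and 1.42%.

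The count of 34 genes higher in members was 16 at a cutoff of 5 UMIs and 63 with no detection limit, which also gave 88 lower genes. Without the naive library 6 genes were lower. All 7 genes of the rule were called under each alternative that gave a contrast. Of the 34, 27 were called without the top member of each library, an alternative chosen after seeing the data, and the genes lost were Gm4951, Herc6, Ifitm3, Parp14, Parp9, Stat2 and Tap1. The 2 other alternatives chosen after seeing the data (cells with 2 or more macrophage UMIs left out, and members with at least 3 of the 7 genes) kept all 34. The 19 interferon genes called outside the rule became 8 at a cutoff of 5, 30 at a cutoff of 20, 32 with no detection limit and 30 without the SNI_day14 library. Their median log2 ratio, 1.76 as the middle of the 3 libraries, was 1.09 at a cutoff of 5, 2.32 at 20, 2.19 at 0.2% of UMIs, 1.31 with Fabp7 at 0.3% and 1.38 without the top members. The identity median was 0.075 with no cell filter and 0.047 against comparison glia of matched depth.

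The injured contrast was the least stable. From 57 higher and 52 lower genes, a cutoff of 5 gave 12 and 10, a cutoff of 20 gave 203 and 192, Fabp7 at 0.3% gave 112 and 91, and no detection limit gave 374 and 678. Higher genes alone became 93 with 0 UMIs of the myelin and neuron genes and 36 with a pseudocount of 5 CPM. Lower genes alone became 88 at 0.2% of UMIs, 22 without Ifi27l2a and 25 with no cell filter. Of 340 values of the 20 genes named in this contrast, 154 moved by more than the SD between the injured libraries, Serpina3n ranging from 0.42 to 1.92, Lgals3 from 1.20 to 3.16, Cdo1 from -3.86 to -0.74 and Fntb from -4.34 to -1.06. Med16 turned to -0.69 at a cutoff of 20, and the causes were not tested. With 23 and 21 injured members, single cells supply much of many genes, and at this depth absence of a gene's UMIs does not show absence of its RNA.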
